A study of Rattus norvegicus with 16 samples.

Results

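Integrins are the receptors, each made of an alpha and a beta subunit, by which cells hold on to the matrix around them, and laminins are the trimers of an alpha, a beta and a gamma chain on which a basement membrane is built. The genes described here were chosen by symbol, as every gene of the count table whose symbol names an integrin alpha subunit, an integrin beta subunit or a laminin chain. This gave 35 of the 32623 genes in the table, of which 34 are described: 17 integrin alpha subunits, 8 integrin beta subunits and 9 laminin chains. Counts, medians and sums over the members are over these 34. They were followed in rat NRK-52E cells, a line derived from kidney tubule and labelled epithelial, and in rat NRK-49F cells, a line of kidney fibroblasts. Both lines were grown together, NRK-52E on a permeable filter insert above NRK-49F on the floor of the well, so that they shared medium without touching. After a period without serum, the medium was set to pH 7.4 or to pH 6.0 for 48 h, and RNA was then taken from each line separately. The study asks how acidosis acts on tubule cells and on fibroblasts that can signal to each other.

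The 4 groups were NRK-52E at pH 7.4 (libraries N1, N2, N5 and N6), NRK-52E at pH 6.0 (N3, N4, N7 and N8), NRK-49F at pH 7.4 (N9, N10, N13 and N14) and NRK-49F at pH 6.0 (N11, N12, N15 and N16), with 4 libraries of polyadenylated RNA in each. All of them were co-cultured, so the values belong to cells that had the other line beside them. Both lines are established and passaged, and neither is a primary cell. Library totals ran from 16201084 to 34784862 fragments. Levels are given as FPM, the fragments of a gene scaled by edgeR's cpm function to a common library size and for the composition of each library, and lists of 4 values follow the order of the libraries above. Means carry the SD over 4 libraries, and log2 fold changes carry their standard error. A gene was called in a comparison of 2 groups when both edgeR and DESeq2 gave a false discovery rate below 0.01 over all genes tested, and the adjusted p printed is that of edgeR. Floors and ranges of counts cover counting error only.

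A basement membrane is laid down when laminin trimers bind to receptors on the cell surface and join one another into a sheet, to which collagen IV, nidogen and perlecan are then tied. Tubule epithelium rests on a membrane rich in laminin alpha 5, beta 1, beta 2 and gamma 1 chains. It holds that membrane mainly through integrins that pair alpha 3 with beta 1, or alpha 6 with beta 1 or beta 4. Fibroblasts lie in the interstitium among collagen fibres and fibronectin and carry integrins for these ligands.

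The labels of the cells were compared with lists of marker genes. Of 11 epithelial markers, 5 reached a mean of 1 FPM in NRK-52E at pH 7.4 and 3 did so in each of the other groups. Their summed level was 513, 477, 440.5 and 499 FPM in NRK-52E at pH 7.4, 366, 295, 326 and 309 in NRK-52E at pH 6.0, 838, 799, 959 and 854 in NRK-49F at pH 7.4 and 211, 224, 205 and 202 in NRK-49F at pH 6.0. Krt8 supplied most of it in all 4 groups, and at pH 7.4 the sum was higher in every fibroblast library than in any NRK-52E library. The defining genes were low in NRK-52E: E-cadherin (Cdh1) was at 1.63 ± 0.228 FPM at pH 7.4 and 0.31 ± 0.153 at pH 6.0, against 0 in NRK-49F at pH 7.4, Esrp1 had 0 fragments in all 16 libraries, and Epcam was at 0.0223 ± 0.0258 FPM at pH 7.4. Occludin (Ocln), of the tight junction, was the clearest epithelial mark, at 41.5 ± 1.97 FPM in NRK-52E at pH 7.4 against 0 in NRK-49F. At pH 6.0 it was lower in NRK-52E, at 9.54 ± 1.10 FPM, against 0.099 ± 0.158 in NRK-49F. Of 12 fibroblast markers in the table, 6 reached 1 FPM in both NRK-52E groups and 9 in both NRK-49F groups. Their sum was 6822, 6879, 6758 and 6568 FPM in NRK-52E at pH 7.4, 3423, 3224, 2821 and 1977 at pH 6.0, 7761, 8183, 7038 and 8358 in NRK-49F at pH 7.4 and 9890.4, 9187, 9810.1 and 8175 at pH 6.0, with Col3a1 the largest entry in NRK-52E and Col1a1 in NRK-49F, while Thy1 had 0 fragments everywhere. Pdgfra was low in NRK-52E, at 0.289 ± 0.112 FPM against 395 ± 56.2 in NRK-49F at pH 7.4. Col1a1 and Postn were also called lower in NRK-52E than in NRK-49F at both pH values. Col3a1 went the other way and was called higher in NRK-52E at both, with a mean of 6267 FPM there at pH 7.4. The cells are called below by the name of the line. Where libraries or groups are called fibroblast or tubule, the label is meant, and not an identity that these markers show. The 9 proximal tubule markers summed to 28.7 to 46.4 FPM in NRK-52E at pH 7.4, 24.6 to 35.2 at pH 6.0, 120.05 to 158 in NRK-49F at pH 7.4 and 358 to 542 at pH 6.0, with Aqp1 the largest entry in NRK-52E and Ggt1 in NRK-49F. The 5 endothelial markers in the table summed to 36.1 to 45.5, 6.79 to 8.86, 6.55 to 8.99 and 2.58 to 3.74 FPM in the same order of groups, with Tek the largest entry in NRK-52E, Vwf in NRK-49F and Kdr and Emcn at 0.

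Of the 34 genes, 26 reached a mean of 1 FPM in at least 1 group, namely 13 of the integrin alpha subunits, 6 of the beta subunits and 7 of the 9 laminin chains. The other 8 stayed below it in every group: Itgal, Itgam, Itga4, Itga8, Itgb2, Itgb7, Lama2 and Lamc3. The number at 1 FPM or more was 20 in NRK-52E at pH 7.4, 19 in NRK-52E at pH 6.0, 25 in NRK-49F at pH 7.4 and 24 in NRK-49F at pH 6.0. A member that passed the filter on low counts only through a group where it is high had to differ between groups, so the counts of calls that follow describe the tested members and no more. In bulk RNA, fewer cells that express a gene and less of its RNA per cell cannot be told apart, and this holds for each difference below.

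The effect of pH in NRK-52E asks what acid does to the tubule line beside fibroblasts. Of 22 members tested, 18 were called, 6 of them higher at pH 6.0 and 12 lower, while of all 13735 genes tested 56.8% were called, 28.2% higher and 28.5% lower. The median log2 fold change of the tested members was -0.70, against 0.0014 for all genes. In NRK-49F the same question gave 9 called of 26 tested, 6 higher and 3 lower, against 37.8% of 13339 genes, 18.4% higher and 19.4% lower. The median was 0.30 for the members and -0.0029 for all genes. The share called in NRK-49F, 34.6% of the tested members, lay near the share of all genes. At pH 7.4, 21 of 26 tested members differed between the lines, 10 higher in NRK-52E and 11 higher in NRK-49F, where 66.6% of 14026 genes were called, 33.3% higher and 33.3% lower in NRK-52E. The median there was -0.38 against 0.029 for all genes. At pH 6.0 the lines differed in 22 of 26 tested members, 7 higher and 15 lower in NRK-52E, where 59.8% of 13796 genes were called, 28.6% higher and 31.3% lower. That median was -1.10 against -0.027 for all genes. NRK-52E always grew on the filter insert and NRK-49F on the floor of the well. Differences between the lines, or between their effects of pH, therefore cannot be told apart from those of the growth surface.

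Whether the effect of pH differed between the lines was tested by the interaction term of an edgeR fit over all 16 libraries, called at a false discovery rate below 0.01 in edgeR. Of 29 members tested, 15 were called, 4 with the effect more positive in NRK-52E and 11 with it more negative, while 37.0% of 14679 genes were called, 19.4% in the first direction and 17.6% in the other. The median over the members was -0.63, against -0.014 for all genes. Lama1 and Lama4, with 0 fragments in every NRK-52E library, are among the 29 and in the median. For them the term measures no difference in the effect of pH, and neither was called. These 5 comparisons share libraries, so their counts are not separate pieces of evidence. Scaling by library totals alone, in place of composition, put the median of all genes at -0.21 in NRK-52E, 0.34 between the lines at pH 7.4, 0.12 between them at pH 6.0 and -0.25 for the interaction. With that scaling 65.7% of the calls between the lines at pH 7.4 were higher in NRK-52E, 62.4% of those for pH in NRK-52E were lower, and 66.3% of those for the interaction were negative, so the even splits of all genes given above hold for scaling by composition. Every member called in these comparisons kept its sign with library totals. The column headers carry a second number, 21 or 22 in NRK-52E and 20 or 21 in NRK-49F, whose meaning is not stated and which splits each group into 2 libraries of each. Fitted within each number, all 18 called members of NRK-52E and all 9 of NRK-49F kept their sign. With 2 libraries in each group, 13 of the 18 were called within 21 and 7 within 22, and 8 of the 9 within 20 and 5 within 21. Lamb2, Lamc1, Lamc3, Itga9 and Itgb7 were called within neither number in NRK-52E. Those not called within 22 alone were Lamb3, Itga5, Itga7, Itga10, Itgae and Itgb5. In NRK-49F, Lama5, Lamb1, Lamb2 and Itgb6 were not called within 21, nor Itga2 within 20.

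Laminin alpha 5 (Lama5, ENSRNOG00000053691, chromosome 3) is the alpha chain of the main laminins of mature tubule basement membrane, and it had the largest share of laminin alpha fragments in both lines, a share that also grows with transcript length. It stood at 1534, 1919, 1808 and 1528 FPM in NRK-52E at pH 7.4 and at 1158, 1551, 1233 and 939.9 at pH 6.0. All but 1 of the acid libraries, N4, lay below the whole pH 7.4 group, and N4 lay inside it. The log2 fold change of -0.47 ± 0.15 was not called (adjusted p 0.0153), and leaving out N4 alone brought it to -0.62 and to a call. Library totals (-0.67), DESeq2 alone and no filter on low counts gave a call too. In NRK-49F the values were 481, 476, 332 and 603 FPM at pH 7.4 and 742, 665, 669 and 730.3 at pH 6.0. Every acid library of the fibroblasts was above every library at pH 7.4, of which N13 was the lowest. Here Lama5 rose by 0.57 ± 0.15 (adjusted p 0.00566), with values of 0.57 and 0.58 within the second numbers 20 and 21. The call did not hold without N9, N10, N11, N12, N15 or N16, each left out alone, where the largest adjusted p was 0.0177. Over all 8 fits with a library left out, those that kept the call included, the fold change ran from 0.44 to 0.70, and each left-out range below is likewise over every such fit. The effects of pH differed between the lines by -1.04 ± 0.23 (adjusted p 9.2e-04), and NRK-52E stayed above NRK-49F at both pH values, by 1.93 at pH 7.4 and 0.80 at pH 6.0.

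Laminin beta 1 (Lamb1, ENSRNOG00000005678, chromosome 6) is the beta chain of several laminins and is found in basement membranes of most tissues. In NRK-52E it was at 671, 759.6, 751 and 700.1 FPM at pH 7.4 and 262, 262, 248 and 219 at pH 6.0. The groups lay far apart, with every acid library below every library of any other group. Lamb1 fell there, with a log2 fold change of -1.53 ± 0.092 (adjusted p 3.0e-07) and -1.46 and -1.62 within the second numbers 21 and 22. The NRK-49F libraries stood at 482, 470.1, 401 and 462 FPM at pH 7.4 and 655, 594, 680.4 and 648 at pH 6.0, again without overlap but the other way round. The rise was 0.51 ± 0.092 (adjusted p 6.1e-04), with 0.41 and 0.62 within the numbers 20 and 21. The interaction was -2.05 ± 0.13 (adjusted p 2.1e-09), the smallest adjusted p of any member in that comparison. The order of the lines turned over: Lamb1 was higher in NRK-52E at pH 7.4 (0.75 for NRK-52E against NRK-49F) and lower there at pH 6.0 (-1.38), both called.

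Laminin beta 2 (Lamb2) takes the place of beta 1 in the laminin of the glomerular membrane and of the synapse, and is also made by tubules. Its level in NRK-52E was 1595, 1705, 1648 and 1516 FPM at pH 7.4 and 1139, 1195, 1095 and 835 at pH 6.0, and the acid group lay wholly below, with N8 lowest. The fall in NRK-52E was -0.59 ± 0.11 (adjusted p 8.9e-04), with -0.51 and -0.70 within the second numbers. In NRK-49F Lamb2 was at 292, 290.2, 223 and 332 FPM at pH 7.4 and 447, 404, 404 and 345 at pH 6.0. These groups were close but did not overlap, and Lamb2 rose by 0.49 ± 0.12 (adjusted p 0.0051), with 0.56 and 0.43 within the second numbers. That call was lost without N9, N10, N11, N12, N13 or N15, each left out alone, with a left-out range of 0.40 to 0.57 and a largest adjusted p of 0.0163. The interaction was -1.09 ± 0.18 (adjusted p 8.1e-05). NRK-52E had more Lamb2 than NRK-49F at pH 7.4, by 2.59, and at pH 6.0, by 1.42.

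Laminin gamma 1 (Lamc1, ENSRNOG00000002680, chromosome 13) is the gamma chain of most laminins. It was at 635, 894, 894 and 790.3 FPM in NRK-52E at pH 7.4 and 345, 541, 438 and 242 at pH 6.0. The spread within each group was wide, with N1 the lowest at pH 7.4 and N4 the highest at pH 6.0, yet the groups did not meet. Lamc1 fell by 1.03 ± 0.21 on the log2 scale (adjusted p 0.00138), and the fitted values within the second numbers were -0.80 and -1.30. For NRK-49F the values were 285, 282, 148 and 242 FPM at pH 7.4 and 525, 444, 446 and 458 at pH 6.0. N13 was low among the fibroblasts at pH 7.4, and all acid libraries were above the group. The rise was 0.97 ± 0.17 (adjusted p 4.8e-04), with 0.79 and 1.21 within the second numbers, and the interaction was -2.01 ± 0.30 (adjusted p 2.8e-05). At pH 7.4 NRK-52E had the higher level, by 1.84, while at pH 6.0 the lines overlapped and the difference of -0.26 ± 0.20 was not called. For the alpha 5, beta 1, beta 2 and gamma 1 chains together, the test of the difference between the lines was called for each, with the effect of pH more negative in NRK-52E.

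Laminin alpha 1 (Lama1), the chain of the embryonic laminin, was at 14.1 ± 5.5 FPM in NRK-49F at pH 7.4 and 16.3 ± 6.71 at pH 6.0, and had 0 fragments in all 8 NRK-52E libraries. Against a floor of 3 fragments per library, it was at least 105-fold higher in NRK-49F at pH 7.4 and at least 113-fold higher at pH 6.0. Laminin alpha 4 (Lama4), a chain of mesenchymal and endothelial membranes, was at 27.7 ± 4.6 FPM in NRK-49F at pH 7.4 and 33.9 ± 3.19 at pH 6.0, with 0 fragments in NRK-52E as well. It was at least 207-fold and at least 236-fold higher in NRK-49F at pH 7.4 and at pH 6.0. Neither was called for pH in NRK-49F, with log2 fold changes of 0.21 ± 0.30 (adjusted p 0.574) for Lama1 and 0.29 ± 0.13 (adjusted p 0.0752) for Lama4. Laminin alpha 2 (Lama2), the chain of muscle and nerve laminin, had 0 to 12 fragments in NRK-52E libraries and 0 to 5 in NRK-49F libraries, and was not tested.

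Laminin beta 3 (Lamb3), a chain of the laminin that anchors skin and other epithelia, went with the NRK-52E line, at 152 ± 10.7 FPM at pH 7.4 and 111 ± 19.6 at pH 6.0, against 12.6 ± 1.14 and 15.9 ± 3.14 in NRK-49F. It fell in NRK-52E by 0.45 ± 0.13 (adjusted p 0.00961) on the log2 scale, a call that was lost without any single library from N1 to N7, with a left-out range of -0.55 to -0.38 and a largest adjusted p of 0.0331. Within the second numbers the fitted values were -0.63 and -0.32. In NRK-49F its change of 0.33 ± 0.15 was not called, and the interaction was -0.80 ± 0.19 (adjusted p 0.00235). Lama3 was not analysed here.

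Laminin gamma 3 (Lamc3), a chain of a few tissues outside the classic membranes, had a mean of 0.187 FPM in NRK-52E at pH 7.4 and 0.928 at pH 6.0, and 0 or 1 fragments in each NRK-49F library. It was below 1 FPM in the mean of every group, and the call in NRK-52E, of 2.25 ± 0.48 (adjusted p 0.00175), rests on 1 to 23 fragments per library. Of 6 laminin chains tested there, 5 were called, 1 higher and 4 lower, where 56.8% of all genes were called, 28.2% higher and 28.5% lower. Of 7 chains tested in NRK-49F, 4 were called, all of them higher, where 37.8% of all genes were called, 18.4% higher.

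**Figure D1:**
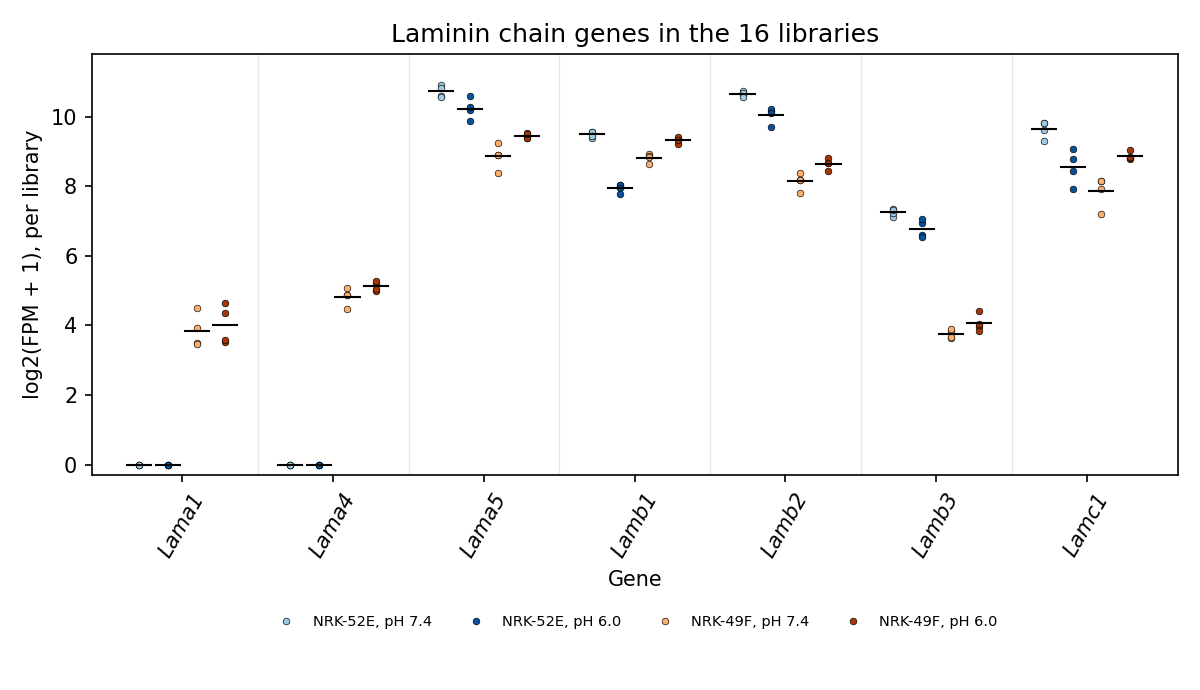
Levels of 7 laminin chains that reach a mean of 1 FPM in a group, on a log2 scale of FPM plus 1, with libraries as points and the mean of the 4 libraries as a bar, by cell line and pH. Lamb1 and Lamc1 are lower at pH 6.0 in NRK-52E and higher in NRK-49F, and Lama1 and Lama4 have points above 0 in NRK-49F alone.

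Integrin alpha 3 (Itga3) pairs with beta 1 to form the receptor for laminins that hold alpha 5 or alpha 3 chains. It was at 454, 471, 431 and 399.8 FPM in NRK-52E at pH 7.4 and 237, 281, 235 and 237 at pH 6.0. No acid library came near the pH 7.4 group, and N3, N7 and N8 were within a few FPM of one another, with N4 above them. Itga3 fell in NRK-52E, with a log2 fold change of -0.82 ± 0.092 (adjusted p 1.8e-05) and -0.85 and -0.80 within the second numbers. Among the fibroblasts it was at 1261, 1139, 974 and 1259 FPM at pH 7.4 and 1728, 1485, 1348 and 1201 at pH 6.0. These groups overlapped, and the change of 0.32 ± 0.13 was not called (adjusted p 0.0555), although it was within second number 20 (0.44). The interaction of -1.14 ± 0.17 (adjusted p 2.2e-05) was called. NRK-49F had more Itga3 at pH 7.4 (-1.32 for NRK-52E against NRK-49F) and at pH 6.0 (-2.54).

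Integrin alpha 6 (Itga6) binds laminins of most kinds, with beta 1 in many cells and with beta 4 in hemidesmosomes. In NRK-52E it was at 169, 193, 214 and 193 FPM at pH 7.4 and 62.5, 60.4, 57.8 and 52.7 at pH 6.0, groups that lay well apart. The fall was -1.71 ± 0.10 (adjusted p 2.4e-07), with -1.57 and -1.87 within the second numbers. In NRK-49F Itga6 was at 91, 92.8, 82 and 76.2 FPM at pH 7.4 and 122, 124, 165 and 207 at pH 6.0. All acid libraries of the fibroblasts were above the pH 7.4 group, N15 and N16 more so than N11 and N12. Itga6 rose there by 0.85 ± 0.15 (adjusted p 6.2e-04), with 0.44 and 1.23 within the second numbers 20 and 21. The interaction was -2.58 ± 0.20 (adjusted p 1.9e-08), and the order of the lines turned over, from 1.25 at pH 7.4 to -1.40 at pH 6.0 for NRK-52E against NRK-49F. Both of these differences between the lines were called.

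Integrin beta 4 (Itgb4) pairs with alpha 6 alone and links laminin to keratin filaments in hemidesmosomes. Its values were 92.4, 92.5, 103 and 91.3 FPM in NRK-52E at pH 7.4 and 45.8, 40.3, 43.3 and 43.6 at pH 6.0. N5 was above the other libraries at pH 7.4, and the acid group was lower throughout. In NRK-49F the values were 368, 341, 306 and 373 FPM at pH 7.4 and 55, 49.8, 85.5 and 99.3 at pH 6.0, a fall that left no overlap. Itgb4 fell in both lines, with log2 fold changes of -1.12 ± 0.087 (adjusted p 1.3e-06) in NRK-52E and -2.26 ± 0.19 (adjusted p 2.0e-06) in NRK-49F. Within the second numbers these were -1.12 and -1.15 in NRK-52E and -2.74 and -1.88 in NRK-49F. The effect was less negative in NRK-52E, with an interaction of 1.12 ± 0.23 (adjusted p 4.7e-04). NRK-52E had less Itgb4 than NRK-49F at pH 7.4 (-1.79) and at pH 6.0 (-0.74). The call at pH 6.0 was lost with library totals (-0.59) and without N3, N4, N7, N15 or N16, each left out alone, over a left-out range of -0.90 to -0.56 with a largest adjusted p of 0.0177.

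Integrin beta 1 (Itgb1) is the common partner of most alpha subunits listed here. It had the largest mean share of integrin beta fragments in each group, a share that also grows with transcript length. The share ran from 42.4% in NRK-49F at pH 7.4 to 93.9% in NRK-52E at pH 6.0. In NRK-49F at pH 7.4 the mean of Itgb1 was 785 FPM and that of Itgb5 was 712. It was at 1353, 1361, 1301 and 1342 FPM in NRK-52E at pH 7.4 and 1318, 1309, 1279 and 1123 at pH 6.0, with N8 below the rest and N3 and N4 inside the pH 7.4 group. The log2 fold change in NRK-52E was -0.081 ± 0.086 and was not called (adjusted p 0.415). NRK-49F libraries stood at 841, 771, 757 and 772 FPM at pH 7.4 and 899.9, 861, 1021 and 1123 at pH 6.0. The acid fibroblast libraries were all above the pH 7.4 group. Their difference of 0.31 ± 0.10 was not called (adjusted p 0.0217), but was with DESeq2 alone (0.32). The interaction of -0.41 ± 0.14 was not called either. It was called with library totals (-0.64), with DESeq2 alone, and without N3, and the leave-one-out values ran from -0.53 to -0.34. The lines differed at pH 7.4, by 0.85 ± 0.074 (adjusted p 8.1e-07), while the difference at pH 6.0 of 0.37 ± 0.12 (adjusted p 0.0185) was not called with all libraries and was called without N8 or without N16 alone, over a left-out range of 0.30 to 0.43, and with library totals (0.52), DESeq2 size factors, DESeq2 alone or 1 fit of all libraries. Integrin alpha 7 (Itga7), the laminin receptor of muscle, was at 38.3 ± 1.96 FPM in NRK-52E at pH 7.4 and 60.7 ± 6.75 at pH 6.0, and at 6.39 ± 0.877 and 8.89 ± 1.9 in NRK-49F. It rose in NRK-52E by 0.68 ± 0.10 (adjusted p 1.3e-04), with 0.74 and 0.59 within the second numbers, while the change in NRK-49F of 0.47 ± 0.19 and the interaction of 0.19 ± 0.20 were not called. The 5 markers of muscle and Schwann cells, of which Myod1 had 0 fragments in all groups, summed to 1.79, 0.743, 0.881 and 0.669 FPM in NRK-52E at pH 7.4 and 32, 26.6, 28.6 and 36.2 at pH 6.0. In NRK-49F they summed to 1.15, 1.28, 1.12 and 1.27 FPM at pH 7.4 and 3.03, 3.64, 2.74 and 3.24 at pH 6.0. Desmin (Des) made up most of that sum in each group, and its part in the level of Itga7 was not tested.

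The collagen receptors are the alpha 1, alpha 2, alpha 10 and alpha 11 subunits, all of which pair with beta 1. Integrin alpha 11 (Itga11), which binds fibrillar collagen on fibroblasts, was at 78.8, 78.5, 60.5 and 56.9 FPM in NRK-49F at pH 7.4 and 45.4, 34.2, 24.5 and 24.3 at pH 6.0. Every acid library was lower, and N15 and N16 were the lowest. Itga11 fell by 1.10 ± 0.20 (adjusted p 5.8e-04) on the log2 scale, with fitted values of -0.96 and -1.27 within the second numbers. In NRK-52E its values were 0.188, 0.413, 0.21 and 0.526 FPM at pH 7.4 and 0, 0.0438, 0.12 and 0 at pH 6.0, from 0 to 11 fragments per library, and it was not tested there. The lines did not come near each other at either pH. Integrin alpha 2 (Itga2), a receptor for collagens and some laminins, moved the other way in NRK-49F, at 2.37, 3.42, 0.728 and 1.83 FPM at pH 7.4 and 6.36, 4.9, 7.0 and 13.9 at pH 6.0. Its acid libraries were all above the pH 7.4 group, N16 by the most and N13 at the bottom. Itga2 rose there by 1.94 ± 0.40 (adjusted p 0.00159), with 0.97 and 2.96 within the second numbers. In NRK-52E it was at 0.0471, 0.165, 0.252 and 0.478 FPM at pH 7.4 and 0.0612, 0, 0 and 0 at pH 6.0. With 0 to 10 fragments per library, it did not pass the filter on low counts there. DESeq2 alone gave an adjusted p of 0.00968 for a fall in NRK-52E, from too few fragments for a fold. The interaction was called (adjusted p 8.9e-04), but its fitted size depends on the prior count because of these few fragments.

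Integrin alpha 10 (Itga10), best known from cartilage, was at 7.91, 7.47, 7.01 and 7.03 FPM in NRK-52E at pH 7.4 and 3.18, 2.67, 2.69 and 3.91 at pH 6.0. The groups were clearly apart, and Itga10 fell by 1.23 ± 0.18 (adjusted p 1.5e-04) on the log2 scale, with -1.41 and -1.07 within the second numbers. In the fibroblast line it was at 12.9, 11.6, 7.28 and 12.8 FPM at pH 7.4 and 7.39, 7.88, 7.64 and 10.6 at pH 6.0, where N13 was low at pH 7.4 and N16 high at pH 6.0 and the groups overlapped. The change there of -0.41 ± 0.20 was not called. The interaction of -0.83 ± 0.28 (adjusted p 0.018) was not called, and was called without N8, in a left-out range of -0.97 to -0.68, with library totals (-1.07) and with DESeq2 alone. The lines differed at pH 6.0, by -1.43 ± 0.22 (adjusted p 9.3e-05), while the difference at pH 7.4 of -0.52 ± 0.17 (adjusted p 0.0172) was not called, and leaving out N13 gave a call, in a left-out range of -0.67 to -0.45, as did DESeq2 alone. Integrin alpha 1 (Itga1), a receptor for collagen IV, was at 13.1 ± 4.17 FPM in NRK-52E at pH 7.4 and 6.96 ± 1.5 at pH 6.0, and at 8.41 ± 2.96 and 13.47 ± 1.37 in NRK-49F. Its log2 fold changes of -0.90 ± 0.26 (adjusted p 0.0106) in NRK-52E and 0.68 ± 0.22 (adjusted p 0.0224) in NRK-49F were not called. The first was called without N1, in a left-out range of -1.12 to -0.81, with library totals (-1.10) and in some other settings. The other was called without N10, in a left-out range of 0.51 to 0.92, with the second number as a covariate (0.73) and with DESeq2 alone. The interaction of -1.59 ± 0.36 (adjusted p 0.00149) was called. Between the lines Itga1 was lower in NRK-52E at pH 6.0, by -0.94 ± 0.19 (adjusted p 8.4e-04), and at pH 7.4 the difference of 0.73 ± 0.29 was not called, and was called without N1, in a left-out range of 0.56 to 0.97, and with library totals, at 1.04.

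A further set binds the RGD sequence of fibronectin, vitronectin and latent TGF-beta. Integrin beta 8 (Itgb8), which pairs with alpha v and releases TGF-beta from its latent form, was at 12.9, 29.2, 45.3 and 34.4 FPM in NRK-52E at pH 7.4 and 2.69, 5.17, 6.14 and 2.93 at pH 6.0. N1 was the lowest at pH 7.4, and still more than any acid library. Itgb8 fell in NRK-52E by 2.83 ± 0.39 (adjusted p 7.8e-05) on the log2 scale, with -2.42 and -3.12 within the second numbers. In NRK-49F it was at 1.15, 1.79, 1.59 and 0.597 FPM at pH 7.4 and 1.51, 2.92, 1.29 and 1.28 at pH 6.0, overlapping groups with a change of 0.43 ± 0.40 that was not called. The interaction was -3.25 ± 0.57 (adjusted p 1.5e-04). NRK-52E was higher at pH 7.4, by 4.70 ± 0.42 (adjusted p 1.2e-06). At pH 6.0 N12 lay inside the NRK-52E group, and the difference of 1.32 ± 0.37 (adjusted p 0.00623) was no longer called without N4, N7, N11, N15 or N16, each left out alone, over a left-out range of 1.10 to 1.64 with a largest adjusted p of 0.0269.

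Integrin beta 6 (Itgb6), an epithelial partner of alpha v that also releases TGF-beta, was at 0.981, 1.48, 1.19 and 1.39 FPM in NRK-49F at pH 7.4 and 0.178, 0, 0.129 and 0.624 at pH 6.0. All acid libraries were lower, at 0 to 35 fragments over the NRK-49F libraries. The fall of 2.25 ± 0.56 (adjusted p 0.00522) on the log2 scale was lost as a call without N10, N11, N14 or N15, each left out alone, with a left-out range of -3.40 to -1.98 and a largest adjusted p of 0.0204, and the low end of that range came without N16. Within the second numbers the fitted values were -3.47 and -1.77. In NRK-52E Itgb6 was at 0.33, 0.619, 1.76 and 0.526 FPM at pH 7.4 and 0.184, 0.132, 0.0802 and 0.0465 at pH 6.0, where it did not pass the filter on low counts. It passed in 5 of the 8 fits with a library left out, at -3.16 to -2.65, and was called in 4 of them, as it was with DESeq2 alone, with no filter and with all 16 libraries in one fit. The acid libraries were again the lower ones, with N5 highest at pH 7.4. The interaction of -0.63 ± 0.95 and the difference between the lines at pH 7.4 of -0.54 ± 0.44 were not called.

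Integrin alpha 5 (Itga5), which pairs with beta 1 as the classic fibronectin receptor, was at 46.6 ± 3.44 FPM in NRK-52E at pH 7.4 and 88.3 ± 21 at pH 6.0, and at 236 ± 21.4 and 258 ± 15.4 in NRK-49F. It rose in NRK-52E by 0.93 ± 0.16 (adjusted p 3.7e-04), with 1.04 and 0.77 within the second numbers, and its change in NRK-49F of 0.13 ± 0.089 was not called. The interaction of 0.79 ± 0.19 (adjusted p 0.00228) was not called without N3, where it was 0.62 (adjusted p 0.0143), nor with library totals, where it was 0.56. Integrin alpha v (Itgav), the partner of beta 3, beta 5, beta 6 and beta 8, was at 61 ± 12.9 FPM in NRK-52E at pH 7.4 and 69.98 ± 20.9 at pH 6.0, and at 77 ± 20.6 and 98.4 ± 9.45 in NRK-49F. None of its 5 comparisons was called in the fits to all libraries of each comparison, and the changes with pH were 0.20 ± 0.23 (adjusted p 0.444) and 0.35 ± 0.17 (adjusted p 0.0903) in NRK-52E and NRK-49F. Integrin beta 5 (Itgb5), a vitronectin receptor subunit that the table lists as a processed transcript, was at 60.8 ± 5.22 FPM in NRK-52E at pH 7.4 and 33.5 ± 4.74 at pH 6.0, and at 712 ± 181 and 601 ± 61 in NRK-49F. It fell in NRK-52E by 0.85 ± 0.12 (adjusted p 8.5e-05) on the log2 scale, with -1.03 and -0.70 within the second numbers, and was not called in NRK-49F (-0.24 ± 0.16). The interaction of -0.62 ± 0.21 (adjusted p 0.0225) was not called. It was called with library totals (-0.85) and without N14, in a left-out range of -0.77 to -0.47. NRK-49F had more Itgb5 than NRK-52E at both pH values, with -3.46 at pH 7.4 and -4.16 at pH 6.0 for NRK-52E against NRK-49F.

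Integrin alpha IIb (Itga2b), known as the fibrinogen receptor subunit of platelets, was at 3.86, 4.21, 5.16 and 4.3 FPM in NRK-52E at pH 7.4 and 16.6, 17.1, 15.7 and 15.4 at pH 6.0. The acid group was higher throughout and tight, and the rise was 1.89 ± 0.15 (adjusted p 1.4e-06), with 2.05 and 1.73 within the second numbers. The NRK-49F libraries stood at 6.41, 6.54, 8.8 and 10.1 FPM at pH 7.4 and 5.12, 4.57, 5.74 and 5.34 at pH 6.0. The fibroblast groups did not overlap, with acid the lower, but the change of -0.61 ± 0.19 (adjusted p 0.0161) was not called. It was called with the second number as a covariate (-0.60), with all 16 libraries in one fit, and with DESeq2 alone. The interaction was 2.50 ± 0.24 (adjusted p 1.7e-07), and NRK-52E passed from the lower side at pH 7.4 (-0.78) to the higher side at pH 6.0 (1.64), both called, but the first call was lost with library totals (-0.47). Its platelet partner, integrin beta 3 (Itgb3), which also pairs with alpha v, had 0 to 3 fragments per library in NRK-52E, and was at 5.35 ± 2.33 FPM in NRK-49F at pH 7.4 and 2.45 ± 0.298 at pH 6.0. In NRK-49F its change of -1.14 ± 0.33 (adjusted p 0.0112) was not called with all libraries and was called without N13, the lowest at pH 7.4, in a left-out range of -1.40 to -0.996, and within second number 20, with DESeq2 alone and with no filter on low counts. The 5 platelet and megakaryocyte markers summed to 0.141, 0.124, 0 and 0 FPM in NRK-52E at pH 7.4 and 0.551, 0.658, 0.682 and 0.372 at pH 6.0, with Gp9 the largest entry. In NRK-49F they summed to 0.231, 0.102, 0.199 and 0.0398 FPM at pH 7.4 and 0.623, 0.398, 0.129 and 0.0624 at pH 6.0. The defining genes Pf4, Ppbp and Gp1bb had 0 fragments in all 16 libraries. Integrin alpha 8 (Itga8), which binds nephronectin in the developing kidney, had 0 to 2 fragments per library in NRK-52E and 3 to 34 in NRK-49F, and was not called for pH in NRK-49F (-0.36 ± 0.52).

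**Figure D2:**
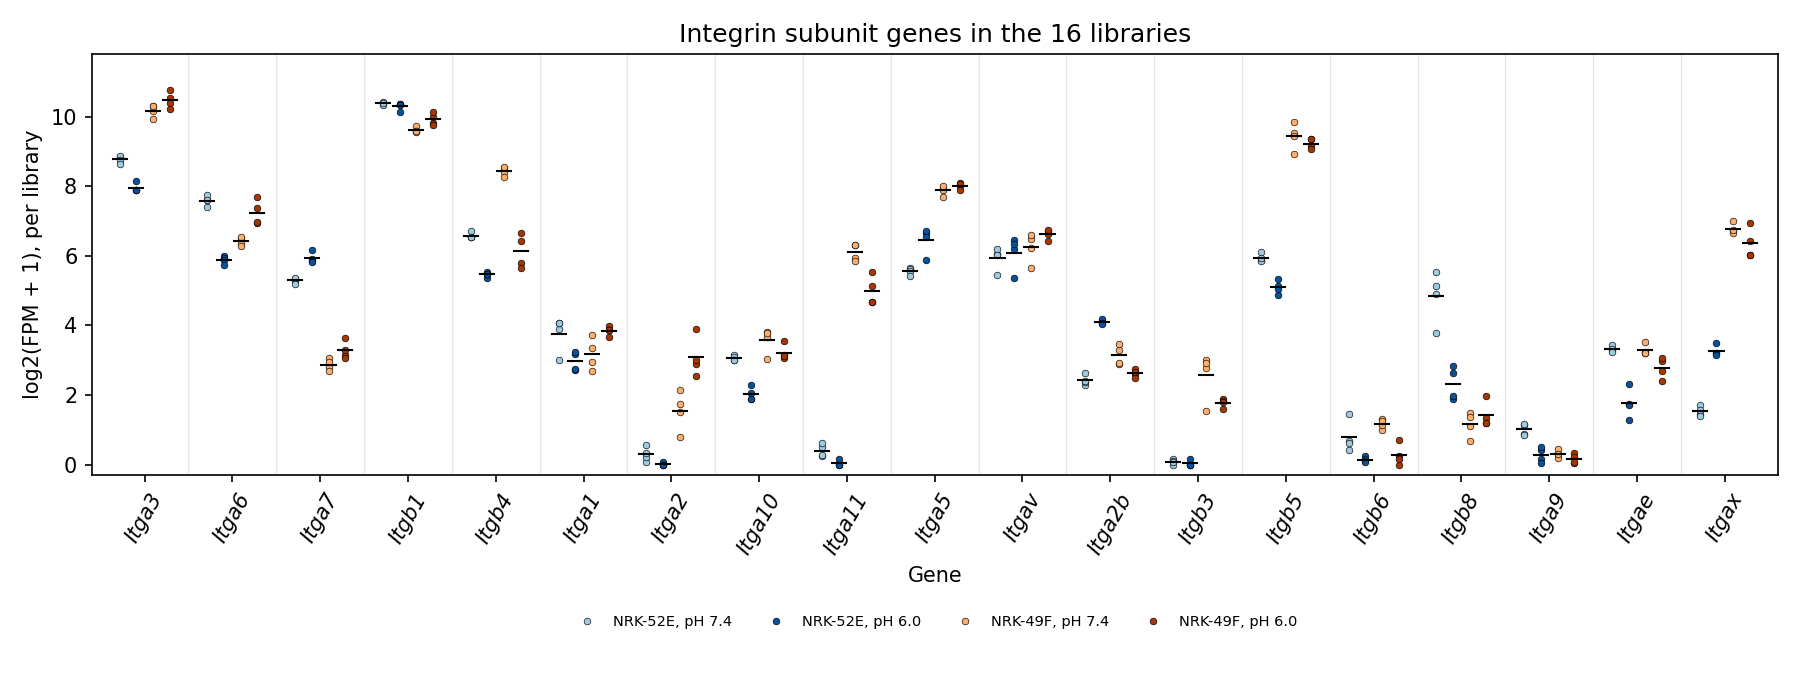
Levels of the 19 integrin subunits that reach a mean of 1 FPM in a group, on a log2 scale of FPM plus 1, with libraries as points and the mean of the 4 libraries as a bar, by cell line and pH. Itga6 is lower at pH 6.0 in NRK-52E and higher in NRK-49F, Itgb4 is lower at pH 6.0 in both lines, and the points of Itgb1 lie between 757 and 1361 FPM in all 4 groups.

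The remaining integrins are best known from leukocytes. Integrin alpha X (Itgax, also CD11c) is carried by dendritic cells and macrophages together with beta 2. It was at 2.31, 1.73, 1.97 and 1.63 FPM in NRK-52E at pH 7.4 and 8.32, 8.24, 10.4 and 7.96 at pH 6.0, where all acid libraries were higher and N7 was the highest. Itgax rose in NRK-52E by 2.20 ± 0.19 (adjusted p 2.4e-06), with 2.02 and 2.36 within the second numbers. For NRK-49F the values were 104, 99.3, 106 and 128 FPM at pH 7.4 and 64.6, 63.7, 85.7 and 123 at pH 6.0. N16 lay among the pH 7.4 libraries while the other acid libraries were below them, and the change of -0.38 ± 0.18 (adjusted p 0.0975) was not called, and was called within second number 20, at -0.65, and without N16, at -0.61. The interaction was 2.57 ± 0.27 (adjusted p 6.4e-07), and NRK-49F had the higher level at pH 7.4 (-5.75 for NRK-52E against NRK-49F) and at pH 6.0 (-3.27). Its partner beta 2 (Itgb2) had at most 3 fragments in any library. The 9 leukocyte markers summed to 4.05, 2.93, 3.57 and 3.01 FPM in NRK-52E at pH 7.4 and 6.36, 7.5, 6.34 and 8.98 at pH 6.0. In NRK-49F they summed to 64.7, 76.6, 101 and 95.5 FPM at pH 7.4 and 227, 227, 262 and 258 at pH 6.0. Cd68 was the largest entry except in NRK-52E at pH 6.0, where it was Lyz2, and Ptprc, the gene for the common leukocyte antigen CD45, had 0 fragments in all 16 libraries.

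Integrin alpha E (Itgae), the partner of beta 7 on lymphocytes within epithelia and a receptor for E-cadherin, was at 8.76, 9.75, 9.1 and 8.37 FPM in NRK-52E at pH 7.4 and 2.33, 1.45, 2.29 and 4.0 at pH 6.0. The acid libraries were all far lower, N8 least so. Itgae fell there by 1.82 ± 0.27 (adjusted p 1.5e-04) on the log2 scale, with -2.33 and -1.46 within the second numbers. Among the fibroblasts it was at 8.43, 8.23, 10.45 and 8.28 FPM at pH 7.4 and 4.32, 5.43, 6.87 and 7.39 at pH 6.0, groups that did not overlap but whose difference of -0.55 ± 0.19 (adjusted p 0.0297) was not called. The interaction was -1.29 ± 0.33 (adjusted p 0.0038). The difference between the lines at pH 7.4 of 0.11 ± 0.13 was not called, but was with library totals, at 0.42. At pH 6.0 they differed by -1.26 ± 0.31 (adjusted p 0.00315), a call lost without N3, N7, N15 or N16, each left out alone, over a left-out range of -1.58 to -1.04 with a largest adjusted p of 0.0125. Integrin beta 7 (Itgb7) had means below 1 FPM in every group and 2 to 28 fragments per library in NRK-52E. Its rise there of 1.71 ± 0.44 (adjusted p 0.00554) was lost with library totals (1.51), in each second number alone, and without N1, N4, N5, N6 or N7, each left out alone, with a left-out range of 1.43 to 2.07 and a largest adjusted p of 0.0223. In NRK-49F it had 1 to 21 fragments per library and was not tested for pH.

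Integrin alpha 9 (Itga9), which pairs with beta 1 and binds tenascin C and osteopontin, was at 0.848, 1.2, 1.26 and 0.813 FPM in NRK-52E at pH 7.4 and 0.122, 0.351, 0.0401 and 0.419 at pH 6.0, from 1 to 30 fragments per library. The groups did not overlap, although both were near 1 FPM or under it. The fall of 2.104 ± 0.50 (adjusted p 0.00316) on the log2 scale was lost without N2, N3 or N5, each left out alone, with a left-out range of -2.55 to -1.71 and a largest adjusted p of 0.0114. Within the second numbers the values were -2.03 and -2.19. In NRK-49F Itga9 was at 0.231, 0.358, 0.132 and 0.239 FPM at pH 7.4 and 0.0445, 0.265, 0.161 and 0.0624 at pH 6.0, 1 to 7 fragments per library, and was not tested for pH. The 2 lines differed at pH 7.4 by 2.13 ± 0.35 (adjusted p 1.6e-04), and the interaction of -1.14 ± 0.85 was not called. Integrin alpha L (Itgal), of lymphocytes, had 0 to 3 fragments per library in NRK-52E and 0 to 9 in NRK-49F. The NRK-49F libraries had 0 at pH 7.4 and 1 to 9 at pH 6.0. Itgal did not pass the filter there, and DESeq2 gave an adjusted p of 0.0396. Integrin alpha M (Itgam), of macrophages and neutrophils, had at most 2 fragments in any library. Integrin alpha 4 (Itga4), a receptor for VCAM and fibronectin, had 0 in all 16. Integrin alpha D (Itgad) and laminin beta 4 (Lamb4) were not analysed here.

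**Figure D3:**
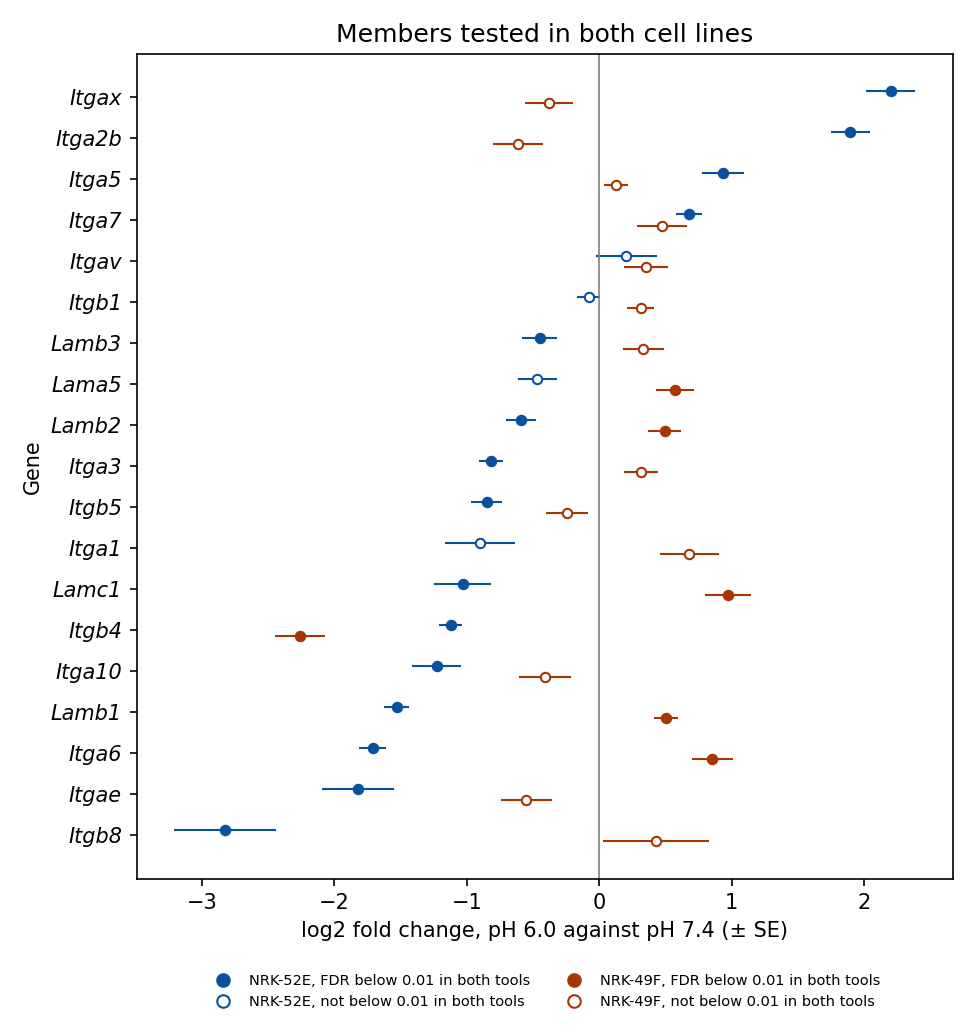
Log2 fold change of pH 6.0 against pH 7.4 (horizontal axis) for each of 19 members tested in both lines (vertical axis), coloured by line, with bars for the standard error, filled points for members called in that line and open points for those not called. Lamb1, Lamc1, Lamb2 and Itga6 lie at negative values for NRK-52E and positive values for NRK-49F, while Itgb4 is negative in both.

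Levels were summed over each class in FPM. These are scaled for composition, so the sums are not the part of each library that the family took up. Laminin alpha chains summed to 1698 ± 197 FPM in NRK-52E at pH 7.4 and 1221 ± 253 at pH 6.0, and to 515 ± 117 and 752 ± 44.7 in NRK-49F. Laminin beta chains summed to 2488 ± 117 FPM in NRK-52E at pH 7.4 and 1424 ± 163 at pH 6.0, and to 750.3 ± 78.3 and 1060.2 ± 59.5 in NRK-49F. Laminin gamma chains summed to 804 ± 122 FPM in NRK-52E at pH 7.4 and 392 ± 128 at pH 6.0, and to 239 ± 63.9 and 468 ± 38.6 in NRK-49F. For each of these classes the acid mean was lower in NRK-52E and higher in NRK-49F, and at pH 7.4 NRK-52E had the more laminin fragments in all of them. Integrin alpha subunits summed to 815 ± 42 FPM in NRK-52E at pH 7.4 and 563 ± 65.6 at pH 6.0, and to 1781 ± 182 and 2119 ± 174 in NRK-49F. Integrin beta subunits summed to 1526 ± 19 FPM in NRK-52E at pH 7.4 and 1339 ± 92.3 at pH 6.0, and to 1852 ± 226 and 1655 ± 136 in NRK-49F. Integrin fragments were more in NRK-49F than in NRK-52E at both pH values, except that scaling by library totals put the beta sum at pH 7.4 higher in NRK-52E, at 1796 against 1665. The mean beta sum was lower at pH 6.0 in both lines, with overlap in NRK-49F. All 34 genes together summed to 7331 ± 468 FPM in NRK-52E at pH 7.4 and 4939 ± 670.1 at pH 6.0, and to 5138 ± 643 and 6054 ± 288 in NRK-49F. Itga3 had the largest share of integrin alpha fragments in each group, from 44.0% in NRK-52E at pH 6.0 to 68.0% in NRK-49F at pH 6.0, shares that grow with transcript length as well. Of laminin beta fragments, Lamb2 had the largest share in NRK-52E and Lamb1 in NRK-49F. No test was made on these sums.

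Ratios of 2 members within a library do not depend on the scaling, and 3 were taken after the levels had been seen, so they have no test. Lamb1 over Lamb2, the alternative beta chains, was 0.421, 0.446, 0.456 and 0.462 in NRK-52E at pH 7.4 and 0.23, 0.219, 0.227 and 0.262 at pH 6.0. In NRK-49F the same ratio was 1.65, 1.62, 1.8 and 1.39 at pH 7.4 and 1.46, 1.47, 1.68 and 1.88 at pH 6.0. The groups were apart in NRK-52E and overlapped in NRK-49F. Itgb4 over Itga6, the partners of the hemidesmosome, was 0.547, 0.48, 0.481 and 0.472 in NRK-52E at pH 7.4 and 0.734, 0.668, 0.748 and 0.827 at pH 6.0. In the fibroblast line it was 4.05, 3.68, 3.73 and 4.9 at pH 7.4 and 0.45, 0.402, 0.52 and 0.479 at pH 6.0. It went up with acid in NRK-52E and down in NRK-49F, without overlap in either. Itga6 over Itga3, the laminin receptors, had means of 0.44 and 0.237 in NRK-52E at pH 7.4 and pH 6.0, and of 0.0746 and 0.112 in NRK-49F, where the groups overlapped.

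Genes that work with the members were read from 4 lists, whose counts and medians stand beside the shares called and the medians of all genes given above for each line. Of the integrin ligands other than laminins, 29 were in the table. In NRK-52E 13 of 17 tested were called, 1 higher and 12 lower, with a median of -2.02, and in NRK-49F 13 of 20, 2 higher and 11 lower, with a median of -0.57. Fibronectin (Fn1), the ligand of alpha 5 beta 1, fell in NRK-52E by 2.04 ± 0.21 (adjusted p 9.7e-06) on the log2 scale and by 0.57 ± 0.13 (adjusted p 0.00306) in NRK-49F, with an interaction of -1.48. Icam1 was the gene that rose in NRK-52E (0.77), and Tnn (-4.20) and Fbln5 (-3.42) fell, as did Tnr, from 9.53 ± 0.759 FPM to 0.010 ± 0.0201, a level of too few fragments for a fold. In NRK-49F osteopontin (Spp1, 0.90) and Mfge8 (0.60) rose, while Ccn2 (-4.21), Ccn3 (-3.88) and Col3a1 (-3.10) fell. Col1a2 was not analysed here.

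Of the basement membrane partners of laminin, 25 of 26 listed were in the table. In NRK-52E 15 of 19 tested were called, 2 higher and 13 lower, with a median of -1.79, and in NRK-49F 6 of 14, 3 higher and 3 lower, with a median of -0.09. Agrin (Agrn), which ties laminin to cell surface receptors, had log2 fold changes of -2.01 ± 0.11 (adjusted p 2.1e-07) in NRK-52E and 1.09 ± 0.13 (adjusted p 2.7e-05) in NRK-49F, with an interaction of -3.11. Tinagl1 (0.90) and Fbln1 (0.37) rose in NRK-52E, and Frem2 (-4.10), Col4a4 (-3.45) and Frem1 had the largest falls, although Frem1 had 0 to 5 fragments per library at pH 6.0, too few for a fold. In NRK-49F Col18a1 (1.06) and Fbln1 (0.71) rose with Agrn, and Frem1 (-1.31), Nid2 (-1.14) and Dag1 (-0.41) fell. Nidogen 1 (Nid1), which joins the gamma 1 chain to collagen IV, was at 141 ± 9.48 FPM in NRK-49F at pH 7.4 and 110.1 ± 43.9 at pH 6.0, and at 0.145 ± 0.0448 and 0.0892 ± 0.0752 in NRK-52E. Perlecan (Hspg2) was not analysed here.

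Of the proteins of the integrin adhesion complex, 43 were in the table. In NRK-52E 24 of 40 tested were called, 7 higher and 17 lower, with a median of -0.23, and in NRK-49F 20 of 41, 3 higher and 17 lower, with a median of -0.39. Talin 1 (Tln1), which binds integrin beta tails, had 0.27 ± 0.13 in NRK-52E, not called, and fell in NRK-49F by 0.59 ± 0.12 (adjusted p 0.00125) on the log2 scale. Integrin-linked kinase (Ilk) rose in NRK-52E by 0.63 ± 0.10 (adjusted p 1.6e-04) and fell in NRK-49F, with -0.39 ± 0.095 (adjusted p 0.0046), with an interaction of 1.002. Kindlin 2 (Fermt2), the partner of talin, was not called in either line, at -0.24 in NRK-52E and -0.26 in NRK-49F. Itgb1bp2 (1.77) and Lims2 (1.36) rose in NRK-52E, where Tln2 (-2.58), Tns1 (-2.04) and Fblim1 (-1.96) fell. In NRK-49F Lims1 (1.91), Fblim1 (1.87) and Itgb1bp1 (0.88) rose, and Tgfb1i1 (-1.84), Tns2 (-1.41) and Zyx (-1.30) fell.

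All 13 genes listed as partners of hemidesmosomes and of laminin-binding integrins were in the table. In NRK-52E 9 of 11 tested were called, 4 higher and 5 lower, with a median of -0.04, and in NRK-49F 5 of 9, 2 higher and 3 lower, with a median of -0.24. The tetraspanin Cd151, which binds alpha 3 beta 1 and alpha 6 integrins, fell in NRK-52E by 0.99 ± 0.16 (adjusted p 2.3e-04) on the log2 scale, and its change of -0.40 ± 0.14 in NRK-49F was not called. Plectin (Plec), which links integrin beta 4 to keratin, fell in both lines, by 1.96 ± 0.13 (adjusted p 4.6e-07) in NRK-52E and by 1.66 ± 0.11 (adjusted p 4.5e-07) in NRK-49F on the log2 scale. Slc3a2 (3.63), Col17a1 (3.55, from 0 to 7 fragments per library at pH 7.4) and Cd9 (1.69) had the largest rises in NRK-52E, and Krt14 (-3.41) and Dst (-1.11) fell beside Plec. In NRK-49F Slc3a2 (0.74) and Cd81 (0.49) rose, and Krt8 (-2.06) and Bsg (-0.83) fell beside Plec.

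Promoters from RefSeq, 250 bases before to 50 after the start on build GRCr8, were matched by symbol alone, since the counts were made on rn6, and 27 of the 34 members had an entry. Those without were Itgb4, Itga6, Itga7, Lamb2, Itgb2, Itgb3 and Itgal. Of 5 motifs searched on both strands, the GC box GGGCGG was in 15 of the 27, 55.6%, against 33.1% of all 33469 promoters in the table. The members were counted with 1 entry per symbol. The 33469 were counted without merging entries of a symbol and without regard to expression here, so the shares stand on unlike bases. The TEAD core GGAATG was in 7, 25.9% against 14.2%, the Nrf2 core TGACNNNGC in 2, 7.41% against 12.1%, the AP-1 motif TGANTCA in 1, 3.7% against 7.33%, and the ATF4-like core TGATGNAA in 0, against 3.98%. The promoters of Lama5 (chr3:187695925-187696224, minus strand, 4 GC boxes), Lamb1 (chr6:53562846-53563145, plus strand, 2 GC boxes) and Lamc1 (chr13:68051937-68052236, minus strand, 5 GC boxes and 1 TEAD core) were chosen for print after the results were seen, with capitals marking GC boxes. Lamb3, whose effect of pH was also more negative in NRK-52E, had an entry with 0 GC boxes. A match is a description of letters and not a site.
Lama5: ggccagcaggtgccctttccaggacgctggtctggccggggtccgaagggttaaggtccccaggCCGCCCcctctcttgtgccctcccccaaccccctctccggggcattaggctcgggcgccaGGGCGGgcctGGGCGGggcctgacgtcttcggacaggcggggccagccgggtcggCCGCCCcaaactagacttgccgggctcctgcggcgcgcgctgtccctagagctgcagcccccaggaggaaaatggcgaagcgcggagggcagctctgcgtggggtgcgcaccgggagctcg
Lamb1: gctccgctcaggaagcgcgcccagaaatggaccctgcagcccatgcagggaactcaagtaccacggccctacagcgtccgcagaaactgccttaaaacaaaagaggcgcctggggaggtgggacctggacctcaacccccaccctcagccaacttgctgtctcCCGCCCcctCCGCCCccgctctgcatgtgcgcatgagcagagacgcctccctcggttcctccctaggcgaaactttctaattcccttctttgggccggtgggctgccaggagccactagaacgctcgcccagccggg
Lamc1: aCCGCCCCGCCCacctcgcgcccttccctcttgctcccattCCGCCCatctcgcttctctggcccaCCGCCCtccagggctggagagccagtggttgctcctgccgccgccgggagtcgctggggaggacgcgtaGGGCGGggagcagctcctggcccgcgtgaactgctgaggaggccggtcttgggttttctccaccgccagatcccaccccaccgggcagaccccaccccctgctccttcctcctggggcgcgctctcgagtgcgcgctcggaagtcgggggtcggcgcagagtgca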

How the data were processed

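The authors deposited one table of counts, raw fragments per gene, for 16 libraries of polyadenylated RNA. Their paper names tophat2 and featureCounts, with multi-mapping fragments counted over the exons of Ensembl genes on rn6, and the submitters' notes name HISAT2 2.1.0 and featureCounts instead, so the aligner is not settled. The options that the paper lists for counting hold none for strand. The labels write pH7 and pH6 for 7.4 and 6.0 and do not say that the 4 libraries of a group were separate cultures, so each p measures the spread between libraries, which may be technical. Depth ran from 16201084 to 34784862 fragments per library.

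Each comparison of 2 groups was fitted on its 8 libraries in R 4.3.3 with edgeR 4.0.16 (limma 3.58.1, TMM factors, filterByExpr, quasi-likelihood F test) and DESeq2 1.42.0 (Wald test), and p-values were adjusted over all genes tested. A call needed a false discovery rate below 0.01 in both tools. A gene counts as tested where it passed edgeR's filter, and DESeq2 also gave values for some genes that did not. The interaction used edgeR alone on all 16 libraries. Fold changes are edgeR's, and dividing the size of one by the root of its F statistic gave its standard error. The TMM factors behind FPM were computed from the 16 libraries together. The code was tested on simulated data.

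The members and the lists (markers of epithelial, fibroblast, proximal tubule, leukocyte, endothelial, platelet and megakaryocyte, and muscle and Schwann cells; integrin ligands, basement membrane partners, adhesion complex, hemidesmosome partners) were chosen with earlier results of these data known. One member is not reported here and every other member is named. Values in every library are given for members called for pH or the interaction with a log2 fold change of at least 1 in size in a line and a mean of at least 1 FPM in a group, and for the member with most fragments of each class. From each companion list at most 3 called genes that rose most and 3 that fell most in a line are named, and Cd151, Nid1, Fn1, Hspg2, Ilk, Fermt2 and Tln1. The ratios and their alternatives were chosen after seeing the data, as were the 3 promoters printed. Alternatives were other scalings, filters, tools and thresholds, 1 fit of all libraries, the second number of the column headers as a covariate and within it, and each library left out. Protein sequences were not analysed.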

Additional observations from a re-analysis of the deposited data

Results flagged for a closer look

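Of 88 groups of 4 libraries examined for a library far from the other 3, 6 had one, where chance gives about 1 in 20 groups, or 4.4 here. Itgax in NRK-52E at pH 6.0 was 10.4 FPM in N7 and 7.96 to 8.32 in the other libraries. Itga10 in NRK-49F at pH 6.0 came to 10.6 FPM in N16 and 7.39 to 7.88 in the others. For Itgb8 in NRK-49F at pH 6.0, N12 stood at 2.92 FPM and the rest at 1.28 to 1.51. Itgae in NRK-49F at pH 7.4 reached 10.45 FPM in N13, with 8.23 to 8.43 elsewhere in the group. Itga3 in NRK-52E at pH 6.0 was 281 FPM in N4, against 235 to 237. Itgb4 in NRK-52E at pH 7.4 was 103 FPM in N5, against 91.3 to 92.5. The cause was not tested for any of them.

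The effect of pH differed between the lines, by the interaction term of edgeR, in 15 members, given as the log2 effect in NRK-52E minus that in NRK-49F. Among the laminins the differences were -1.04 for Lama5, -2.05 for Lamb1, -1.09 for Lamb2, -0.80 for Lamb3 and -2.01 for Lamc1, all of them negative. Among the integrins they were negative for Itga1 (-1.59), Itga3 (-1.14), Itga6 (-2.58), Itgae (-1.29) and Itgb8 (-3.25). Itga2 had -5.72, a fitted size that depends on the prior count because NRK-52E libraries held 0 to 10 fragments. The differences were positive for Itgax (2.57), Itga2b (2.50), Itgb4 (1.12) and Itga5 (0.79). The value for Itga5 was 0.62 without N3 and then not called (adjusted p 0.0143), and it was not called with library totals either.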

How the results depend on the processing

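Over the other scalings, filters, tools, thresholds and fits, without those within a second number or with a library left out, the members called numbered 15 to 22 for pH in NRK-52E, 8 to 15 for pH in NRK-49F, 19 to 23 and 21 to 24 between the lines at pH 7.4 and 6.0, and 15 to 18 for the interaction. Fits without any 1 of the libraries gave 15 to 19, 6 to 9, 21 to 23, 19 to 23 and 15 to 16 members in that order. In NRK-49F, FDR below 0.05 gave 15 members, 6 of them lower, and DESeq2 alone gave 5 lower. As a covariate, the second number added Itga1 and Itga2b to the calls in NRK-49F and changed no other call of a member for pH in either line. It was not used for the other comparisons. Within a second number each group had 2 libraries, and both tools together called fewer of all genes than in the main fit. Within 22 in NRK-52E, 7 members were called, 2 higher and 5 lower, and 2814 of all genes, 1429 higher and 1385 lower. Within 21 there, 4 members and 2486 of all genes were higher. Within 21 in NRK-49F, 5 members were called, 3 of them higher, and 1976 of all genes, 997 higher and 979 lower. Within 20, 11 members were called, 5 of them lower, with Itgax, Itga3 and Itgb3 gained and Itga2 lost, and 4658 of all genes. Library totals gave 6374 of all genes higher and 3323 lower between the lines at pH 7.4, 2900 higher and 4815 lower for pH in NRK-52E, and 1829 of all genes with a higher interaction. They also moved class sums, to 959 FPM for integrin alpha, 1796 for integrin beta, 1999.8 for laminin alpha, 2929 for laminin beta and 948 for laminin gamma in NRK-52E at pH 7.4, and to 695 for laminin alpha and 980.1 for laminin beta in NRK-49F at pH 6.0.

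Values that changed sign belonged to members not called in the comparison. Itgav in NRK-52E was -0.00048 with library totals and -0.17 within 22, and between the lines at pH 7.4 it was 0.053 with totals. Itga8 in NRK-49F was 0.18 within 21, and the interaction of Itga7 was -0.045 with totals. With each library left out, Lama1 in NRK-49F ran from -0.041 to 0.50. Interactions ran from -1.01 to 0.52 for Itgb6, -0.30 to 0.036 for Itgav and -0.12 to 0.63 for Itgb7. The fitted interaction terms ran from -0.51 to 0.043 for Lama1 and -2.53 to 0.80 for Itgb3. Lama1 had 0 fragments in every NRK-52E library, so its term measures no difference in the effect of pH. Itgb3 had 0 to 3 fragments per library in NRK-52E, too few for its term to measure such a difference. The log2 ratio of Lamb1 to Lamb2 between pH values in NRK-49F ran from -0.066 to 0.061. The cause of these changes was not tested.

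No paired analysis was possible because the 16 library numbers are each used once, and the second number of the headers, shared by 2 libraries of each group of a line, joins no single library to another. An insert and the well below it shared medium, but the labels do not say which libraries of the lines, if any, came from one well. The comparisons of the lines and the interaction therefore treated all libraries as independent. Members with a few fragments per library, such as Itga9, Itgb6, Itgb7 and Lamc3, are limited by depth. Itgal, Itgam, Itgb2, Lama2 and Itga4 had too few fragments to pass the filter on low counts in any comparison, and none was called. No transcript lengths were at hand, so a share of fragments or a ratio between genes also reflects length. What the second number of the headers stands for is not known.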
